A study of Bos taurus with 18 samples.

Results

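The glucose contrast at the basal level of epigenetic modifiers compared High Control with Low Control. Both treatments were cultures of EBTr, a tracheal fibroblast line of bovine embryonic origin, in Eagle's minimum essential medium with serum. High Control held 4.5 g/L glucose and Low Control held 1 g/L glucose. Neither received extra epigenetic modifiers (EM; folate, choline, vitamin B12 and methionine), so both had the amounts of the control medium. DNA methylation was measured by reduced representation bisulfite sequencing (RRBS), in which CpG-rich restriction fragments are treated with bisulfite so that methylated and unmethylated cytosines read differently. The 6 Control libraries, 3 of each treatment, were chosen from 18 by their labelled glucose and EM treatment, and all 31500 CpG cytosines of the table were members, with none removed for low values. The other 12 libraries, High ×2.5, Low ×2.5, High ×5 and Low ×5, were used for the spread of each CpG and to set the same glucose contrast beside this one. Each library came from its own frozen tube of cells, and nothing states that the tubes came from separate cultures, so that p-values measure the spread between these libraries, which may be technical. All libraries came from 1 line, and a methylation table holds no expression, so the fibroblast label was not checked against markers.

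Methylation of a CpG is written by DNA methyltransferases, which take the methyl group from S-adenosylmethionine, a product of the folate and methionine cycles. Glucose feeds these cycles through serine, which carries the carbon that folate passes on. In most mammalian cells CpGs between and inside genes are largely methylated, CpG-dense start sites are largely unmethylated, and after replication a maintenance enzyme copies the mark so that the 2 strands of a CpG usually match.

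The value for each CpG and library was an M-value, that is the log2 of methylated over unmethylated reads, to both of which the authors added an offset. A level in percent was computed back from it and keeps the offset. An offset of the same size on both counts draws a level toward 50%, and more so at a CpG with fewer reads. Differences are High Control minus Low Control on the log2 scale of the M-value, and CpGs with an unadjusted limma p-value under 0.01, from a fit to all libraries, are termed called. The read depth was not given with the values. Levels are ratios of counts, so that low totals leave coarse steps between them, but depth was not worked out here. Positions are those of bosTau8. Gene names are those of the closest start site, at any distance, in the study's supplementary tables of its called cytosines. A CpG took the gene it was listed with, or the gene of the listed CpGs on both sides where these shared it. This covered 25162 CpGs (79.88%). Clusters and regions, defined below, took the name of a gene assigned to any of their CpGs, so other members can have no gene. The span of a gene was thus set by CpGs called in the study's contrasts, so shares called by gene rest on a selected set. Whether a CpG lies in an exon, an intron or a UTR was not analysed here.

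The Low Control libraries stood apart from each other. The mean level over all CpGs was 69.6%, 68.8% and 69.2% in High Control 1 to 3. In Low Control it was 69.6% in replicate 1, 67.8% in replicate 2 and 67.2% in replicate 3. Low Control 1 thus lay within the range of High Control, while Low Control 2 and 3 were below it. High Control averaged 69.2% ± 0.386 (SD, n = 3) and Low Control 68.2% ± 1.25, a difference of 1.02 percentage points (exact two-sided permutation p = 0.3, where 3 libraries against 3 cannot go below 0.1). The number of distinct M-values in a library was 8711 to 11438 in High Control and 10106, 5446 and 4307 in Low Control 1, 2 and 3. Low Control 2 and 3 had the fewest of the 18 libraries, and the 4 libraries with the fewest distinct values were also the 4 with the lowest mean level. Low Control 1 correlated better with the High Control libraries (mean r = 0.944 across CpGs, which are not independent) than with the other two of its own group (mean r = 0.906). The part of these library features in the results was not tested. The counts of calls, the named CpGs, clusters and regions, the gene lists and the interactions are also given without Low Control 2 and 3, a choice made after seeing the data that leaves 1 Low Control library. The strand pairs were not recomputed in that way.

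**Figure D1:**
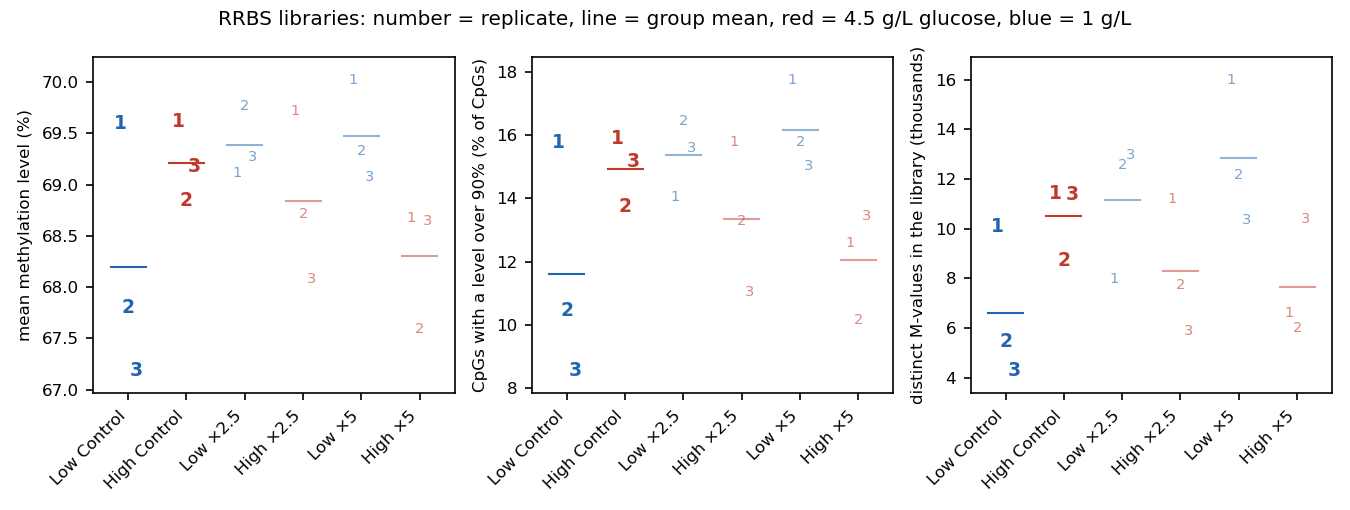
Mean methylation level in percent (left), percent of CpGs with a level over 90% (middle) and number of distinct M-values, (right) for the 18 libraries by treatment; each digit is a replicate number and each line a group mean, red for 4.5 g/L glucose and blue for 1 g/L. Low Control 2 and 3 are below the 3 High Control libraries in all 3 panels, while Low Control 1 lies at or near their level.

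The libraries differed in how far the values spread toward both ends. CpGs were put into classes by their mean M-value in the 12 supplemented libraries, which are not part of the contrast. In the 4035 CpGs of the class over 90%, the mean M-value was 3.79, 3.68 and 3.78 in High Control and 3.78, 3.36 and 3.21 in Low Control, a difference of 0.30 (exact permutation p = 0.3, n = 3). Here Low Control 1 sat among the High Control libraries and only Low Control 2 and 3 were lower. In the 404 CpGs of the class under 10%, the mean M-value was -4.49, -4.17 and -4.50 in High Control and -4.38, -3.66 and -3.38 in Low Control, a difference of -0.58 (exact permutation p = 0.2, n = 3). Low Control 2 and 3 were again nearer to 0 than the other libraries.

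Between these ends the difference ran from low to high classes. It was -0.15 in the class from 10% to 30% (1757 CpGs), -0.01 from 30% to 50% (4110 CpGs), 0.04 from 50% to 70% (6483 CpGs) and 0.16 from 70% to 90% (14711 CpGs). The class from 10% to 30% reached the smallest p-value that this design allows (exact permutation p = 0.1, n = 3), with all 3 Low Control libraries above all 3 High Control libraries. With Low Control 1 alone, the difference was between -0.05 and -0.002 in every class. In the supplemented libraries the same classes differed the other way, by 0.33 at ×2.5 and 0.55 at ×5 under 10%, and by -0.15 and -0.31 over 90%. The share of CpGs with a level over 90% was 14.9% ± 1.09 in High Control and 11.6% ± 3.75 in Low Control (exact permutation p = 0.3, n = 3).

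**Figure D2:**
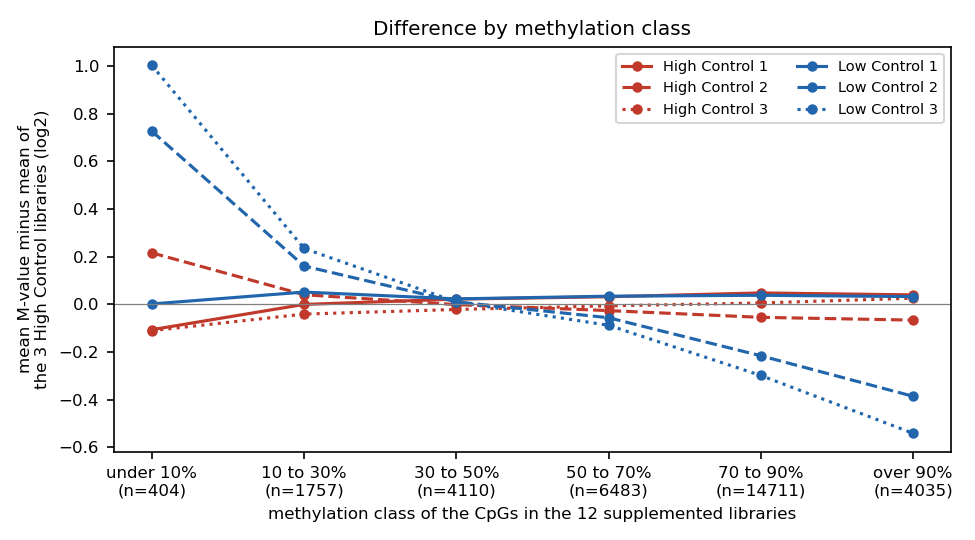
Mean M-value of each Control library in 6 methylation classes, minus the mean of the 3 High Control libraries, on the log2 scale; the number of CpGs in each class is given below it. The lines of Low Control 2 and 3 tilt from high values in the class under 10% to low values in the class over 90%, and the line of Low Control 1 stays near 0.

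Of the 31500 CpGs, 606 (1.92%) were called, 435 methylated in High Control relative to Low Control (1.38%) and 171 demethylated (0.543%). No CpG had a Benjamini-Hochberg adjusted p-value under 0.05 in limma, and 2508 had an unadjusted p-value under 0.05. The 435 methylated CpGs had a median level of 89.4% in High Control and 77.9% in Low Control, with a median difference of 1.13 (range 0.57 to 2.63). The 171 demethylated CpGs had median levels of 35.9% and 49.6%, with a median difference of -1.03. The 3 libraries of each treatment did not overlap at 3456 CpGs (11.0% of all), at 2295 with the higher levels in High Control (7.29%) and at 1161 with the lower (3.69%). Of the called CpGs, 394 methylated and 152 demethylated ones did not overlap. The calls used these same values, so this adds nothing to them.

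The direction and the number of the calls moved with the libraries and the scaling. Of all 31500 CpGs, the median difference was 0.08. With each library centred on its median, 576 CpGs were called and 46.5% of them were methylated in High Control, against 71.8% without centring. After quantile normalization, which gives every library the same distribution of M-values, 526 were called (1.67%) with 48.3% methylated. Without Low Control 1, 1342 CpGs were called (4.26%). Without Low Control 2 and 3, 293 were called (0.930%), 30.4% of them methylated, and 66 of them were among the 606 with the same direction. The difference in mean level was then -0.384 percentage points.

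Calls were more frequent at the ends of the methylation range. In the class under 10%, 31 CpGs were called (7.67% of the class), and all 31 were demethylated in High Control. In the class over 90%, 140 were called (3.47%), 133 methylated and 7 demethylated. In the class from 70% to 90%, 256 were called (1.74%), 221 of them methylated. In the class from 30% to 50%, 60 were called (1.46%), with 22 methylated and 38 demethylated. The directions at both ends are those of the class means of Low Control 2 and 3 given above. By chromosome, the share called ran from 1.25% on chromosome 18 to 3.33% on chromosome 12, and the median difference was above 0 on all 30 chromosomes (0.004 to 0.16) without scaling.

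Among single CpGs methylated in High Control, a PLCB1-assigned CpG (chromosome 13, position 870786) had the smallest p-value. PLCB1 encodes a phospholipase C that acts downstream of G protein-coupled receptors. Its level was 87.2%, 87.9% and 92.7% in High Control and 71.9%, 62.5% and 64.7% in Low Control. All Low Control libraries were below all High Control libraries. The difference was 2.11 (SE 0.33, limma, Benjamini-Hochberg adjusted p = 0.243), and it was 1.75 with Low Control 1 alone. A CpG assigned to GNAI1, an inhibitory G protein subunit that lowers cyclic AMP, lay at position 41486202 of chromosome 4. It had levels of 93.3%, 89.2% and 90.5% in High Control and 72.9%, 77.3% and 81.8% in Low Control. In this CpG Low Control 1 was the lowest library, so that the difference was 1.58 (SE 0.33) with all libraries and 1.94 with Low Control 1 alone. ARRDC3, whose product is an arrestin-like adaptor in receptor trafficking, had a CpG at position 93156072 of chromosome 7 with levels of 91.8%, 92.9% and 90.4% in High Control and 86.2%, 75.0% and 68.8% in Low Control. Low Control 1 was the nearest to High Control there. The difference was 1.69 (SE 0.33), and 0.83 with Low Control 1 alone, where it was no longer called.

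CpGs assigned to genes of mitochondrial metabolism were among the named ones in both directions. NDUFB7, a subunit of respiratory complex I, had a CpG at position 12141064 of chromosome 7 with levels of 91.2%, 92.6% and 94.5% in High Control and 84.9%, 85.4% and 84.2% in Low Control. The 3 Low Control libraries lay close together, and the difference was 1.22 (SE 0.25) both with and without Low Control 2 and 3. A second NDUFB7-assigned CpG, at position 12133291, was nearly unmethylated, with levels of 2.78%, 3.33% and 2.90% in High Control and 9.43%, 18.8% and 13.3% in Low Control. It differed in the other direction, by -2.32 (SE 0.50), and by -1.75 with Low Control 1 alone, where it was no longer called. BCKDHB encodes a subunit of the dehydrogenase that breaks down branched-chain amino acids. Its CpG at position 20861029 of chromosome 9 had levels of 94.5%, 97.3% and 98.3% in High Control and 93.9%, 77.4% and 74.2% in Low Control. Low Control 1 was within 1 percentage point of High Control 1, and the difference of 2.63 (SE 0.55) was 1.10 with Low Control 1 alone and was no longer called. GHITM, a protein of the inner mitochondrial membrane, had a CpG at position 39345370 of chromosome 28 with levels of 5.77%, 12.1% and 7.41% in High Control and 19.5%, 27.8% and 23.1% in Low Control. The groups did not overlap, and the difference was -1.79 (SE 0.34), or -1.47 with Low Control 1 alone.

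The other CpGs methylated in High Control were assigned to RMI1, MIR2293 and INTS10. RMI1 belongs to the complex that resolves recombination intermediates, and its CpG at position 78649551 of chromosome 8 had levels of 90.8%, 92.7% and 92.3% in High Control and 85.0%, 73.9% and 80.0% in Low Control. The MIR2293-assigned CpG at position 96712082 of chromosome 10 had levels of 96.6%, 95.2% and 95.2% in High Control and 89.5%, 81.0% and 88.9% in Low Control. INTS10 is a subunit of the Integrator complex, which processes small nuclear RNAs. Its CpG at position 37641606 of chromosome 27 had levels of 78.8%, 88.9% and 84.3% in High Control and 68.4%, 62.5% and 57.1% in Low Control. In all 3 of these CpGs the highest Low Control library was replicate 1. With Low Control 1 alone, the differences were 1.01, 1.39 and 1.33 in this order, and none of the 3 kept a p-value under 0.01 in limma.

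The remaining CpGs demethylated in High Control spanned low, middle and high levels. P2RY1 encodes a receptor for ADP, and its CpG at position 116108080 of chromosome 1 had levels of 79.2%, 77.0% and 76.6% in High Control and 88.9%, 90.2% and 86.7% in Low Control. TAGAP encodes a GTPase-activating protein of T cells, and its CpG at position 96973487 of chromosome 9 had levels of 34.2%, 37.2% and 38.3% in High Control and 50%, 50% and 58.5% in Low Control. A CpG assigned to NONO, an RNA-binding protein of paraspeckles, lay at position 40770672 of chromosome 21 and had levels of 13.3%, 16.7% and 12.8% in High Control and 34.6%, 33.3% and 28.6% in Low Control. In these 3 CpGs the 3 Low Control libraries stood together, and the differences of -1.17, -0.96 and -1.52 became -1.21, -0.80 and -1.68 with Low Control 1 alone, each with a limma p-value under 0.01.

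For TWIST1, a transcription factor of mesenchymal cells, the CpG at position 27733290 of chromosome 4 had levels of 34.5%, 40.7% and 41.5% in High Control and 54.5%, 61.3% and 55.2% in Low Control. The CpG at position 583215 of chromosome 14, assigned to C14H8orf33, had levels of 88.6%, 84.8% and 84.6% in High Control and 91.4%, 93.1% and 93.3% in Low Control. SELENOH encodes a selenoprotein of the nucleolus, and its CpG at position 82597348 of chromosome 15 had levels of 19.3%, 15.4% and 15.2% in High Control and 21.7%, 40.0% and 37.5% in Low Control. Low Control 1 was the Low Control library nearest to High Control in all 3. The differences of -1.06, -1.03 and -1.28 became -0.92, -0.78 and -0.48 with Low Control 1 alone, and none of the 3 was then called. Over the 16 named CpGs, all had a p-value under 0.01 with any single library left out, and 7 had one without Low Control 2 and 3. The adjusted p-values of the 16 lay between 0.243 and 0.426 in limma after Benjamini-Hochberg adjustment.

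**Figure D3:**
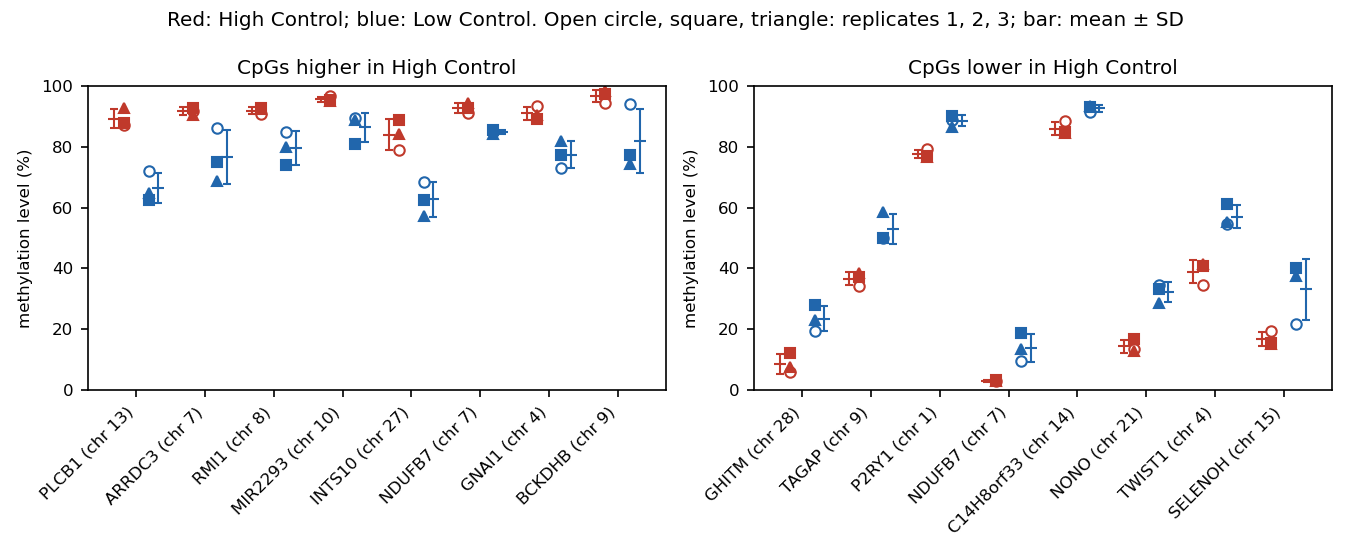
Methylation level in percent of the 8 named CpGs in each direction, labelled by assigned gene and chromosome, in the 3 High Control (red) and 3 Low Control (blue) libraries; open circles, squares and triangles are replicates 1, 2 and 3, and bars are mean ± SD. The 2 groups do not overlap in any of the 16, by the rule that chose them, and the open blue circle (Low Control 1) is the blue point nearest to the red ones in 12.

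The 2 strands of a CpG were listed as separate cytosines at 6210 CpGs. Of the called cytosines, 206 had a measured partner on the other strand, and 121 partners (58.7%) differed in the same direction, against 54.9% over all pairs. The called cytosines of these pairs differed by a median of 1.06 in absolute value and their partners by 0.11 in the direction of the call. For example, the INTS10-assigned cytosine had a partner at position 37641607 with levels of 83.9% in High Control and 82.1% in Low Control. Of the 16 named cytosines 5 had a partner, with partner differences from -0.41 to 0.20 and no partner called. Both strands were called at 2 CpGs. At RASA1, which encodes a Ras GTPase-activating protein, both cytosines were demethylated in High Control. The cytosine at position 89222273 of chromosome 7 had levels of 6.86%, 6.06% and 8.87% in High Control and 14.9%, 12.5% and 15.8% in Low Control, and its partner at 89222274 had 7.25%, 5.13% and 8.75% against 17.6%, 14.3% and 15.0%. On neither strand did the groups overlap. At DHX15, which encodes an RNA helicase of splicing, the cytosine at 45737595 of chromosome 6 differed by -0.78 and its partner at 45737596 by 1.04.

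Neighbouring CpGs gave a view that rests less on single cytosines, although close CpGs can share reads. CpGs less than 100 bp apart were joined into 2663 clusters of at least 3 CpGs, and limma was run on their mean M-values. Of these, 77 clusters (2.89%) were called, 70 methylated in High Control (2.63%) and 7 demethylated (0.263%). The libraries of the 2 treatments did not overlap in 329 of all clusters (12.4%). The direction moved with the scaling, since 33 of 60 called clusters were methylated with centred libraries, 35 of 53 after quantile normalization and 38 of 55 after scaling to equal SD. There were 19 called clusters with Low Control 1 alone, 8 methylated and 11 demethylated.

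The cluster with the smallest p-value held 5 CpGs at positions 870767 to 870806 of chromosome 13, assigned to PLCB1, and included the CpG named above. Its mean level was 87.8%, 89.5% and 89.0% in High Control and 80.8%, 70.8% and 70% in Low Control. All Low Control libraries were lower, and replicate 1 was the nearest to High Control. The difference was 1.46 (SE 0.21, limma, Benjamini-Hochberg adjusted p = 0.0071), the only cluster with an adjusted p-value under 0.05. With Low Control 1 alone it was 0.91 and still called, but with an adjusted p-value of 0.999, and after quantile normalization it was 1.33. The adjusted p-value was 0.365 when limma was run on the 6 Control libraries alone. No cluster passed an adjusted p-value of 0.05 when High Control 2 or 3 or Low Control 2 or 3 was left out, and 32 did without Low Control 1. All 5 CpGs differed in the same direction, and 3 were called. CpGs this close can share reads, so their agreement is not independent. Their differences in the order of position were 1.14, 2.11, 0.75, 1.71 and 1.61. In that order the levels were 75.0%, 62.5%, 56.25%, 81.25% and 75.0% in Low Control 2. In Low Control 3 they were 82.4%, 64.7%, 64.7%, 64.7% and 70.6%. Both sets move in coarse steps, as ratios of small counts do. The middle CpG, at 870791, had the lowest level of the 5 in both treatments, 73.0% ± 5.10 in High Control and 61.8% ± 4.83 in Low Control (SD, n = 3).

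The next clusters included those assigned to ADCYAP1 and ALG6. ADCYAP1 encodes PACAP, a peptide hormone that raises cyclic AMP, and its cluster of 4 CpGs at positions 36390820 to 36390871 of chromosome 24 had levels of 69.1%, 67.8% and 63.4% in High Control and 54.7%, 46.7% and 44.5% in Low Control. The treatments did not overlap, with 63.4% against 54.7% at the nearest libraries, and the difference was 1.09 (SE 0.20, limma, Benjamini-Hochberg adjusted p = 0.069). It was 0.74 with Low Control 1 alone and then not called. ALG6 encodes the enzyme that adds glucose to the lipid-linked precursor of N-glycans. A cluster of 3 ALG6-assigned CpGs at 82874286 to 82874325 of chromosome 3 had levels of 57.5%, 66.5% and 66.4% in High Control and 54.2%, 48.6% and 42.8% in Low Control, a difference of 0.89 (SE 0.20). High Control 1 and Low Control 1 were the nearest libraries here, 57.5% against 54.2%. The difference was 0.56 with Low Control 1 alone and then not called.

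Of the other clusters methylated in High Control, that of KCTD3, a potassium channel tetramerization domain protein, held 16 CpGs at 17765567 to 17765688 of chromosome 16. Its levels were 88.1%, 89.1% and 88.5% in High Control and 85.0%, 83.2% and 76.5% in Low Control. The cluster of RNF122, a RING finger ubiquitin ligase, held 5 CpGs at 28927310 to 28927350 of chromosome 27, with levels of 91.0%, 93.6% and 92.6% in High Control and 88.4%, 83.7% and 84.9% in Low Control. The differences of 0.78 and 1.02 became 0.45 and 0.68 with Low Control 1 alone, and neither cluster was then called.

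Demethylated clusters were few. SELENOH had a cluster of 3 CpGs at 82596797 to 82596880 of chromosome 15 with levels of 45.2%, 41.7% and 52.0% in High Control and 56.6%, 61.6% and 64.5% in Low Control, a difference of -0.86 (SE 0.19). The groups did not overlap, and the p-value was under 0.01 with each library left out. With Low Control 1 alone the difference was -0.60 and was not called. The next 4 clusters did not hold in that way. They were assigned to C14H8orf33 (6 CpGs at 470738 to 471015 of chromosome 14), to CPS1, the carbamoyl phosphate synthetase of the urea cycle (6 CpGs at 100655095 to 100655182 of chromosome 2), and to no gene on chromosomes 12 (3 CpGs at 80364271 to 80364291) and 27 (6 CpGs at 26383658 to 26383787). In the chromosome 12 cluster the levels were 7.94%, 7.22% and 7.38% in High Control and 7.64%, 18.2% and 15.5% in Low Control. Low Control 1 lay inside the range of High Control there, and without the other Low Control libraries the difference fell from -0.89 to -0.03. In the CPS1 cluster the levels were 57.5%, 56.5% and 59.7% in High Control and 62.1%, 64.5% and 70.7% in Low Control, and the difference of -0.49 was not called without Low Control 3. With Low Control 1 alone the difference was -0.25 at CPS1, -0.15 at C14H8orf33 and -0.26 on chromosome 27.

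**Figure D4:**
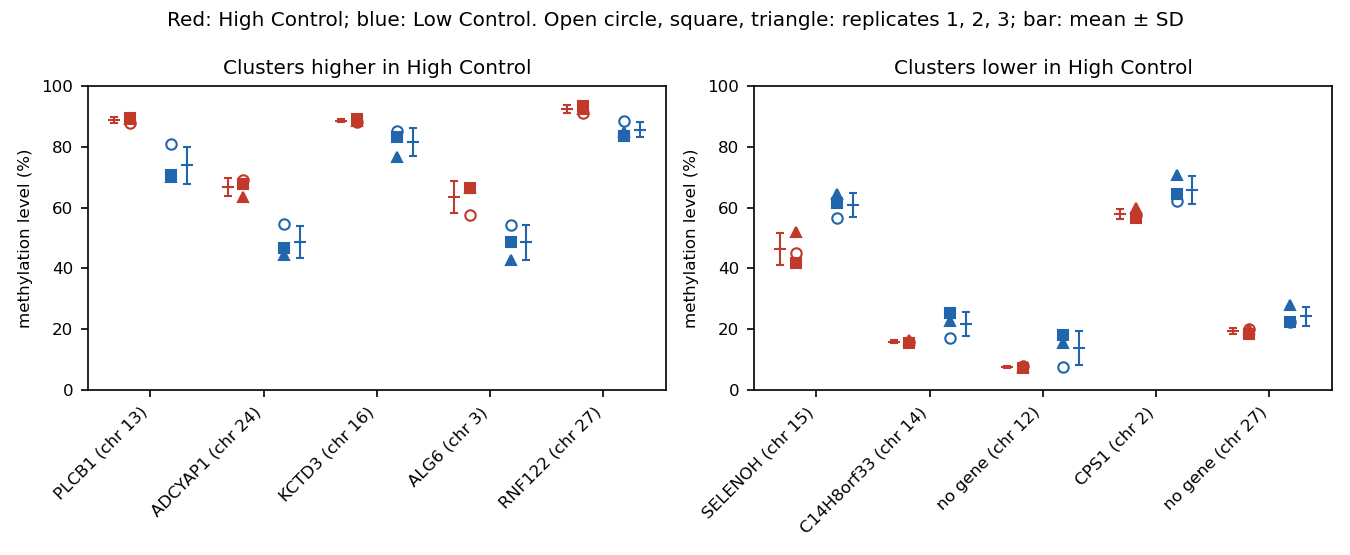
Mean methylation level in percent of the 5 named clusters in each direction, labelled by assigned gene and chromosome, in the 3 High Control (red) and 3 Low Control (blue) libraries; open circles, squares and triangles are replicates 1, 2 and 3, and bars are mean ± SD. PLCB1 and ADCYAP1 show a gap between the treatments, and the open blue circle (Low Control 1) is the nearest blue point to the red ones in 9 of the 10 clusters.

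Over regions, that is stretches with no gap above 10 kb between CpGs and at least 10 CpGs, 12 of 423 (2.84%) were called and all 12 were methylated in High Control. This direction depended on the scaling, since 5 of 11 called regions were methylated with centred libraries, 5 of 10 after quantile normalization and 4 of 9 after scaling to equal SD. Without scaling, none had a Benjamini-Hochberg adjusted p-value under 0.05 in limma. They held 10 to 64 CpGs and differed by 0.22 to 0.64, and their libraries did not overlap in 11 of 12, where 48 of all regions (11.3%) did not overlap. NAA15 encodes a subunit of an N-terminal acetyltransferase, and its region of 10 CpGs at 18677523 to 18677609 of chromosome 17 had levels of 86.7%, 87.5% and 86.0% in High Control and 84.2%, 84.4% and 82.0% in Low Control. The gap between the treatments was small but so was the spread, and the difference was 0.36 (SE 0.08, limma, Benjamini-Hochberg adjusted p = 0.228). Only 1 of these 10 CpGs, at 18677583, was itself assigned to NAA15. That CpG differed by -0.30, opposite to the region. The RNF122 region of 15 CpGs at 28841811 to 28842409 of chromosome 27 had levels of 70.5%, 70.6% and 70.9% in High Control and 68.7%, 62.5% and 63.4% in Low Control. A region of 29 CpGs assigned to C14H8orf33, at 1002820 to 1012419 of chromosome 14, had 76.3%, 76.5% and 75.6% in High Control and 74.2%, 70.3% and 71.9% in Low Control. With Low Control 1 alone these 3 differences were 0.29, 0.14 and 0.15, and 1 region of 423 was called in all, in the demethylated direction.

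Without scaling, no region was called demethylated. The 3 with the smallest p-values were LMF2 (23 CpGs at 120020922 to 120021274 of chromosome 5), MIR2887-2 (24 CpGs at 92540895 to 92540976 of chromosome 6) and one with no gene on chromosome 27 (16 CpGs at 26379710 to 26383787). LMF2, a lipase maturation factor, had levels of 54.4%, 52.9% and 53.5% in High Control and 56.5%, 58.2% and 57.1% in Low Control, a difference of -0.21 that did not pass the threshold. It was called in 6 of 20 alternatives, with -0.33 for centred libraries and -0.24 after quantile normalization among them, and was -0.17 with Low Control 1 alone. MIR2887-2 had levels of 13.9%, 15.6% and 9.38% in High Control and 12.3%, 23% and 20.8% in Low Control, and its difference of -0.61 turned to 0.05 without Low Control 2 and 3. The difference of the chromosome 27 region was then -0.06.

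Called CpGs were spread over many genes. Of the 606, 518 were assigned to 184 of 365 genes, and of the CpGs with a gene 2.06% were called. Of the genes, 81 had exactly 1 called CpG and 74 had at least 3. The genes with the most calls were C14H8orf33 with 22 of 1074 tested CpGs (2.05%) and ALG6 with 21 of 960 (2.19%), shares close to that background. ALG6 had 18 methylated and 3 demethylated CpGs and 4 called clusters, but 9 and 9 CpGs after quantile normalization. Most CpGs called with Low Control 1 alone were not called in that direction with all libraries. Counts of calls from that setting in genes and lists thus do not show which calls stayed. PPP2R2A, a regulatory subunit of protein phosphatase 2A, had 13 of 482 (2.70%), TLE4, a corepressor of the Groucho family, had 12 of 688 (1.74%), and TWIST1 had 10 of 321 (3.12%). CA10 had 8 of 146 (5.48%), LRGUK 8 of 230 (3.48%), NDUFAF4 8 of 242 (3.31%), NDUFB7 8 of 291 (2.75%) and CFAP126 8 of 612 (1.31%). CFAP126, a protein of motile cilia, had 6 of its 8 demethylated in High Control. Its mean level was 39.1% in High Control and 40.1% in Low Control, the lowest of the 10 genes with the most calls. CA10, a carbonic anhydrase-related protein of neurons, had 5 methylated and 3 demethylated CpGs.

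Among 22 signalling genes, 57 of 2701 CpGs were called (2.11%), 38 methylated and 19 demethylated in High Control, with a median difference of 0.07. ADCYAP1 had 6 of 93 CpGs called (6.45%, 0.86 to 1.47) and VIPR2 had 6 of 159 (3.77%, 0.68 to 1.40). All of these were methylated in High Control. VIPR2 encodes a receptor for PACAP and vasoactive intestinal peptide. At ADCYAP1, the CpG at position 36389474 of chromosome 24 had levels of 85.7%, 90.2% and 88.3% in High Control and 80.6%, 71.8% and 66.7% in Low Control. The VIPR2 CpG at 120643832 of chromosome 4 had 94.6%, 95.4% and 95.9% against 91.3%, 86.2% and 87.5%. In both CpGs Low Control 1 was the nearest to High Control. After quantile normalization 6 VIPR2 CpGs and 3 ADCYAP1 CpGs were called, all methylated. PLCB1 had 4 of 58 CpGs called (6.90%) and MAPK8, the stress-activated kinase JNK, had 3 of 95 (3.16%), all methylated. After quantile normalization PLCB1 had 4 methylated CpGs, and MAPK8 had 3 methylated and 1 demethylated. PPP2R2A had 8 methylated and 5 demethylated, GNAI1 3 and 4, PAK1, a kinase of the cytoskeleton, 3 and 2, and ARRDC3 2 and 2. The share called was 1.71% of 409 CpGs at GNAI1, 0.673% of 743 at PAK1 and 3.15% of 127 at ARRDC3. DNAJC27 was named for 2 called clusters. After quantile normalization the list had 28 methylated and 27 demethylated CpGs, and without Low Control 2 and 3 it had 25 calls.

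Of 20 genes of mitochondria and energy metabolism, 53 of 2277 CpGs were called (2.33%), 39 methylated and 14 demethylated, with a median difference of 0.12. ACO1, the cytosolic aconitase, had 5 of 176 CpGs called (2.84%, 0.70 to 1.33) and BCKDHB had 5 of 46 (10.9%, 0.92 to 2.63). SLC16A7, a monocarboxylate transporter, had 3 of 134 (2.24%, 1.12 to 2.0). All of these were methylated in High Control. At SLC16A7, the CpG at position 54082983 of chromosome 5 had levels of 96.2%, 87.0% and 88.7% in High Control and 83.6%, 63.2% and 70.6% in Low Control. After quantile normalization 2 ACO1, 3 BCKDHB and 3 SLC16A7 CpGs were called methylated, and 1 SLC16A7 CpG demethylated. The largest BCKDHB difference, 2.63, was 1.10 with Low Control 1 alone. GHITM had 3 of 163 CpGs called (1.84%), all demethylated (-1.79 to -1.06). NDUFAF4, an assembly factor of complex I, had 5 methylated and 3 demethylated, and NDUFB7 6 and 2. DMAC1, another complex I assembly factor, had 5 and 2 (2.42% of 289 CpGs). LYRM1 had 3 and 1 (2.06% of 194) and FABP2, the intestinal fatty acid-binding protein, 2 and 1 (2.22% of 135). CPS1 had 1 of 314 CpGs called (0.318%), methylated, beside its demethylated cluster. After quantile normalization the list had 23 methylated and 24 demethylated CpGs, and without Low Control 2 and 3 it had 25 calls.

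In 17 genes of transcription, chromatin and Wnt signalling, 38 of 1811 CpGs were called (2.10%), 30 methylated and 8 demethylated. TLE4 had 10 methylated and 2 demethylated CpGs and 3 called clusters, and TWIST1 had 8 and 2. HDAC8, a histone deacetylase, had 3 and 1 (1.99% of 201 CpGs). SET, a histone chaperone, had 4 of 168 CpGs called (2.38%), all methylated in High Control (1.43 to 1.60). The SET CpG at position 19035982 of chromosome 25 had levels of 65.2%, 63.0% and 59.6% in High Control and 41.9%, 37.5% and 35% in Low Control. TBXT, the mesoderm factor brachyury, had 1 methylated and 3 demethylated (6.45% of 62 CpGs). Its methylated CpG at 102681846 of chromosome 9 had 86.4%, 84.6% and 88.7% against 67.3%, 75.0% and 66.7%. SFRP1, a secreted Wnt antagonist, had 2 of 130 CpGs called (1.54%), both methylated, and a called cluster. Quantile normalization left 16 methylated and 15 demethylated CpGs in this list, and 14 were called without Low Control 2 and 3. TWIST1 then had 0 calls.

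Adhesion, matrix and cytoskeleton genes (17) had 28 of 1410 CpGs called (1.99%), 20 methylated and 8 demethylated. CADM1, a cell adhesion molecule, had 4 of 162 CpGs called (2.47%, 1.06 to 1.33). FERMT1, an integrin activator, had 3 of 389 (0.771%) and CDH10, a cadherin, had 2 of 84 (2.38%). All of these were methylated. After quantile normalization CADM1 had 2 methylated and 1 demethylated CpGs. TENM3, a teneurin of neurons, had 3 of 148 CpGs called (2.03%), all demethylated (-1.46 to -0.67). ITGB8, an integrin subunit, had 4 methylated and 2 demethylated CpGs, and MSN and KIRREL3 each had 2 and 1. The share called was 2.93% of 205 CpGs at ITGB8, 4.23% of 71 at MSN and 4.0% of 75 at KIRREL3. In this list 10 methylated and 12 demethylated CpGs were called after quantile normalization, and 10 in all without Low Control 2 and 3.

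Immune genes (15) had 20 of 1327 CpGs called (1.51%), 12 methylated and 8 demethylated. IFITM3, an antiviral membrane protein, had 3 methylated and 1 demethylated CpGs (1.55% of 258). BOLA, a name of the major histocompatibility complex, had 2 and 2 (2.80% of 143). CpGs with this name lay on several chromosomes, so they are not all at that complex. IL2, CCR2 and MIR155 each had 2 and 1, of 331 (0.906%), 248 (1.21%) and 121 (2.48%) CpGs in this order. Neural genes (13) had 21 of 1358 called (1.55%), 12 methylated and 9 demethylated. GRIK1, a glutamate receptor subunit, had 5 methylated and 1 demethylated (1.73% of 346 CpGs), and BRINP1 had 2 and 2 (0.964% of 415). Ribosome genes (7) had 10 of 621 called (1.61%), 5 methylated and 5 demethylated. Of these, RPL34 held 7 (2.04% of 343) and RPS6 held 3 (3.0% of 100). After quantile normalization the counts of methylated and demethylated CpGs were 6 and 18 in the immune, 6 and 20 in the neural and 2 and 6 in the ribosome list, so that the immune and neural lists changed from mostly methylated to mostly demethylated. These 3 lists had 16, 19 and 3 calls without Low Control 2 and 3. Thus, without scaling, the share called was between 1.51% and 2.33% in the 7 lists, around the 2.06% of all CpGs with a gene, and the median difference was between 0.05 and 0.12 beside 0.08 for all CpGs.

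The same glucose contrast was measured in other libraries at ×2.5 and ×5. There, 317 CpGs (1.01%) were called between High ×2.5 and Low ×2.5 and 506 (1.61%) between High ×5 and Low ×5. Of the 606 CpGs called at the Control level, 259 (42.7%) had the same sign at ×2.5 and 197 (32.5%) at ×5, where 47.0% and 44.2% of all CpGs did. The 435 methylated CpGs had a median difference of -0.11 at ×2.5 and -0.24 at ×5, and the 171 demethylated CpGs 0.02 at both. Only 4 were also called at ×2.5 in the same direction and 14 in the opposite direction, and at ×5 these were 8 and 34. After quantile normalization, the shares with the same sign were 47.9% and 42.4%, beside 48.2% and 47.2% of all CpGs. Without Low Control 2 and 3, the 293 called CpGs had the same sign at 56.7% and 58.0%, beside 50.4% and 50.5% of all. These shares carry no p-value, since neighbouring CpGs vary together.

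**Figure D5:**
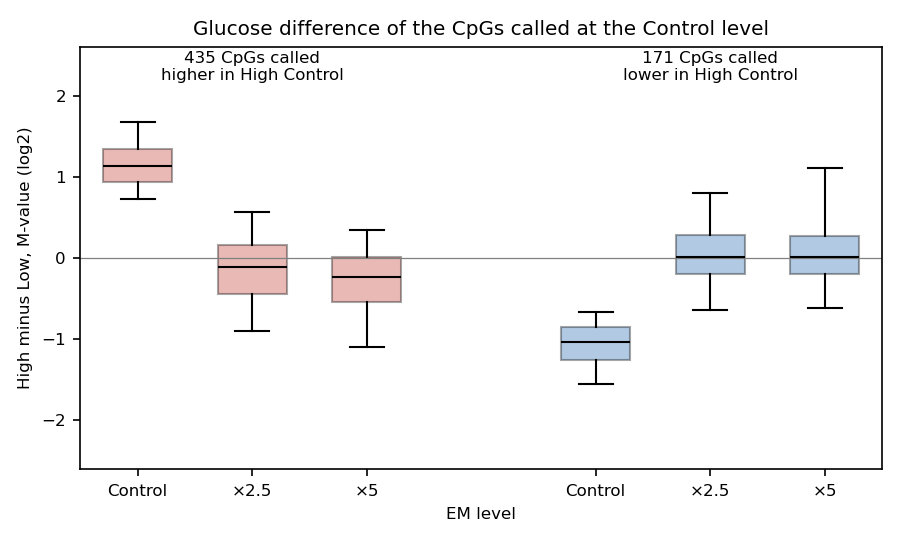
High minus Low difference of the M-value (log2) at the Control level, ×2.5 and ×5 for the CpGs called at the Control level, methylated in High Control in red and demethylated in blue; boxes are quartiles with the median as a line and whiskers span the 5th to 95th percentile of CpGs. The Control boxes are away from 0 by the choice of the CpGs, and the medians at ×2.5 and ×5, from other libraries, lie between -0.24 and 0.02.

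The glucose difference at the Control level was tested against the mean of those at ×2.5 and ×5. For the mean level, p-values came from exchanging High and Low libraries within EM levels. Such exchanges take glucose to have no effect at any level, so these p-values do not test equal differences alone. The differences were 1.02 percentage points at the Control level, -0.544 at ×2.5 and -1.17 at ×5. The interaction was 1.87 (exact permutation p = 0.034 over 8000 exchanges of libraries within EM levels, two-sided, n = 3 per treatment). It turned to -0.664 with centred libraries (exact permutation p = 0.029), and was 0.0002 after quantile normalization (exact permutation p = 0.6) and 0.118 after scaling to equal SD (exact permutation p = 0.18). It was 0.473 without Low Control 2 and 3 (exact permutation p = 0.46 over 1600 exchanges). For single CpGs, 906 (2.88%) had an interaction p-value under 0.01, 703 of them more positive at the Control level, none had a Benjamini-Hochberg adjusted p-value under 0.05 in limma, and 3131 had an unadjusted p-value under 0.05. Centring the libraries changed the split, with 364 more positive and 431 more negative at the Control level. Quantile normalization gave 300 and 268, scaling to equal SD gave 292 and 292, and the fit without Low Control 2 and 3 gave 176 and 129.

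Of the 2663 clusters, 7 had an interaction with a Benjamini-Hochberg adjusted p-value under 0.05 in limma, all more positive at the Control level. At PLCB1 the difference was 1.46 at the Control level, -0.29 at ×2.5 and -0.27 at ×5, an interaction of 1.75 (SE 0.26, adjusted p = 0.0097). At ADCYAP1 it was 1.09, 0.08 and -0.77, an interaction of 1.43 (SE 0.24, adjusted p = 0.030). PLCB1 and ADCYAP1 stayed under the threshold after quantile normalization (adjusted p = 0.0070 and 0.035). The others lay at PPP2R2A (0.72, -0.45 and -0.59), at ACBD6, an acyl-CoA-binding protein (0.46, -0.16 and -0.83), at TLE4 in 2 clusters (0.62, -0.12 and -0.64; 0.71, -0.38 and -0.54) and on chromosome 25 with no gene (0.40, -0.31 and -0.43). In all 7 the sign at ×5 was opposite to that at the Control level. Without Low Control 2 and 3, the interaction was 1.20 at PLCB1 and 1.08 at ADCYAP1, and no cluster had an adjusted p-value under 0.05. Among 423 regions, NAA15, KYNU, NUDT12 and C14H8orf33 passed (adjusted p = 0.031 for NAA15 and 0.042 for the other 3), and none did after quantile normalization or without Low Control 2 and 3.

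Calls that held under several of these choices were few. They are subsets of the 606 CpGs called among 31500, refitted on most of the same values, so they are no independent support. Only the settings given here were required. With each of the 6 Control libraries left out in turn, 96 of the 606 were called every time. Among the 96, 70 were methylated and 26 demethylated in High Control. Of these, 90 were also called with centred libraries and after quantile normalization, and 28 of them also without Low Control 2 and 3, 20 methylated and 8 demethylated. The 28 include 8 CpGs described above (at PLCB1, GNAI1, NDUFB7, P2RY1, TAGAP, NONO, GHITM and TBXT) and 3 at ALG6 and 2 at TLE4. The ALG6 CpG at position 82774547 of chromosome 3 had levels of 95.5%, 94.1% and 88.6% in High Control and 76.3%, 81.0% and 66.7% in Low Control. The TLE4 CpG at 56844616 of chromosome 8 had 84.9%, 82.5% and 86.4% against 68.9%, 67.9% and 70.6%. At CLINT1, an adaptor of clathrin-coated vesicles, the CpG at 71952567 of chromosome 7 had 35.3%, 36.7% and 33.8% against 18.8%, 18.5% and 21.7%. In the CpGs of TLE4 and CLINT1 the libraries of each treatment stood close together with a gap between the treatments. The adjusted p-values of the 28 were between 0.243 and 0.458 in limma after Benjamini-Hochberg adjustment. At ×2.5, 3 of the 28 had an unadjusted p-value under 0.05, and at ×5, 1.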

How the data were processed

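RRBS libraries of EBTr cells were made by the authors from 3 tubes per treatment, and reads were trimmed, mapped to bosTau8 and called with Bismark 0.22.3, with a coverage filter. The authors deposited log2 values (M-values with an unnamed offset), 1 per CpG and library, on no common scale stated. Depth was not given with them and was not worked out from the levels, and no counting interval was computed. Replicates follow the labels.

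Levels in percent were computed as 100 times the methylated share that the M-value implies. Two-sided tests used limma 3.58.1 (R 4.3.3), with 1 mean for each treatment and all 18 libraries in the fit, and the call threshold was that of the study, an unadjusted p-value under 0.01. Single values per library were compared by exact permutation. Other steps used Python 3.11.15, pandas 2.3.3, numpy 2.4.6 and scipy 1.17.1, and figures matplotlib 3.10.9. limma was tested on simulated data with independent CpGs and, for each CpG, the same spread in all libraries, a simpler setting than these data. Named were the 8 CpGs in each direction with the smallest p-values, called and without overlap (at most 1 per region), 5 clusters and 3 regions in each direction, the 10 genes with most calls, and list genes with at least 3 called CpGs or a called cluster. Other CpGs shown for these genes were chosen after their values were seen. So were the clusters and regions that passed the interaction test, the strand pairs and the CpGs that held in several settings. The members and lists were chosen with earlier results of these data known. Gene symbols came from the study's supplementary tables (363 of 365 in the RefSeq table of ARS-UCD2.0); no sequences or gene parts were analysed here.

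Alternatives were robust and trended eBayes, the 6 Control libraries alone, a replicate block, leaving out libraries, centring, quantile normalization, levels as fractions, CpGs from 10% to 90%, a difference of 10 percentage points, other cluster distances (50 and 200 bp), and, added after seeing the data, equal SD of libraries, leaving out Low Control 2 and 3, the interaction without each Control library, and the alternatives of the mean level interaction.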

Additional observations from a re-analysis of the deposited data

Results flagged for a closer look

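The glucose difference of 5 quantities at the Control level differed from that under supplementation at a p-value or adjusted p-value under 0.05. For the mean level this came from exchanges that take glucose to have no effect at any EM level. For the clusters and regions it came from limma on the interaction. For the mean level, the interaction was 1.87 percentage points. The Low Control group of this value holds the 2 libraries with the fewest distinct M-values, and without these the interaction was 0.473 (exact permutation p = 0.46). It was -0.664 with centred libraries and 0.0002 after quantile normalization. For clusters it was 1.75 at PLCB1 and 1.43 at ADCYAP1, and for regions 0.54 at NAA15 and 0.44 at C14H8orf33, all on the log2 scale of the M-value. These clusters and regions were named for their Control difference, which is also a term of the interaction. After quantile normalization the interaction was 1.47 at PLCB1, 1.35 at ADCYAP1, 0.24 at NAA15 and 0.24 at C14H8orf33, and without Low Control 2 and 3 it was 1.20, 1.08, 0.47 and 0.30. Groups of 3 libraries were not searched for single outlying libraries.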

How the results depend on the processing

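Replicate numbers did not pair the libraries (correlations of the deviations of same-numbered High Control and Low Control libraries were 0.040, 0.038 and -0.011). With the replicate block, 609 CpGs and 21 regions were called instead of 606 and 12. The 6 Control libraries alone gave 370 CpGs, 75.7% methylated, and 50 clusters. At an adjusted p-value under 0.05, 0 CpGs, 1 cluster and 0 regions were called. Of the 606 CpGs called at the unadjusted threshold, 340 differed by at least 10 percentage points.

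Leaving out 1 library, or 1 replicate number, gave 404 to 1342 called CpGs, 62.2% to 76.2% methylated, 25 to 268 clusters and 3 to 92 regions. CpGs with an interaction numbered 624 to 1680 without 1 Control library and 494 to 1243 without 1 replicate number of all treatments. The highest counts of calls were those without Low Control 1, where 4 CpGs, 32 clusters and 100 regions, and 68 CpGs by interaction, had an adjusted p-value under 0.05, and the lowest those without replicate 3. The interaction of the mean level was 1.37 (without Low Control 3) to 2.57 points (without Low Control 1), with an exact permutation p under 0.05 in the last case only. The shares with the same sign were 39.9% to 46.2% at ×2.5 and 29.3% to 38.2% at ×5, the mean level difference 0.513 to 1.72 points, and the class differences -0.86 to -0.31 (under 10%), -0.20 to -0.09, -0.03 to -0.004, 0.01 to 0.07, 0.09 to 0.26 and 0.16 to 0.46 (over 90%).

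With libraries centred on the median, 46.5% of calls were methylated, the mean level difference was -0.348 points and its interaction -0.664, and the classes from 10% to 70% differed by -0.26, -0.13 and -0.078. After quantile normalization, 48.3% were methylated, 568 CpGs had an interaction, 47.9% and 42.4% kept their sign at ×2.5 and ×5, the mean level difference was 0.00028 points, and the classes up to 90% differed by -0.11, -0.056, -0.032, -0.033 and 0.010. With libraries scaled to equal SD, 48.5% were methylated, 584 had an interaction, 48.9% and 42.7% kept their sign, the mean level difference was 0.084 points, and the classes 10% to 30%, 50% to 70%, 70% to 90% and over 90% differed by -0.056, -0.024, 0.0086 and 0.064. Among CpGs from 10% to 90%, 47.8% and 36.9% kept their sign.

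Without Low Control 2 and 3, 293 CpGs (30.4% methylated), 19 clusters and 1 region were called, 305 CpGs had an interaction, 56.7% and 58.0% kept their sign, and the mean level difference was -0.384 points. The classes other than 30% to 50% differed by -0.0020, -0.052, -0.034, -0.038 and -0.033. The MIR2887-2 region reversed to 0.048, the only named CpG, cluster or region to do so in any setting tried. The cause of these shifts was not tested. Of the other values of named items under an alternative, 523 kept their direction and side of the threshold, 70 lost the threshold and 8 passed it. Read depth, which was not worked out here, limits every single value.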
